A study of Homo sapiens with 12 samples.

Results

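Enzymes that modify RNA other than the core writers and erasers of N6-methyladenosine (m6A) were examined in A549, an established human lung carcinoma line. Members were taken by gene name: the METTL, NSUN, TRMT, PUS, RPUSD, DUS, ADAT, ALKBH and FTSJ families followed by a number, together with TRUB1, TRUB2, DKC1, ADARB1, NAT10, FBL and TRDMT1, and without METTL3, METTL14 and ALKBH5. This gave 79 genes of the 22564 in the table, each with 1 row. Total RNA had been sequenced from 12 libraries, 6 of cells transfected with small interfering RNA against YTHDC1 (siYTHDC1) and 6 with a scrambled control (siSCR), at 40 nM for 48 to 72 h. YTHDC1 is the nuclear reader of m6A. A549 is a single line grown in culture, and the labels do not say whether libraries of a group came from separate cultures.

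The value described here is the authors' mean normalized count of each gene, which pools both groups. The other value columns of the table hold the authors' own comparison of siYTHDC1 with siSCR and were not used. No difference between the groups is therefore reported, for the members or for YTHDC1 itself (mean normalized count 232). A pooled mean has no spread between libraries, so the order of genes close to each other was not tested, and library depth cannot be read from it. To compare levels between genes, the count was divided by the length of the union of their exons, giving a mean normalized count per kilobase. Undivided counts are given beside it and also reflect gene length.

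Cellular RNAs carry many chemical marks besides m6A. Transfer RNAs (tRNAs) are the most densely modified: methyltransferases, pseudouridine synthases, dihydrouridine synthases and deaminases act on the body and on the anticodon loop, which keeps the fold stable and decoding accurate. Ribosomal RNA is methylated and pseudouridylated in the nucleolus under the guidance of small nucleolar RNAs, and mitochondria use a further set of nuclear-encoded enzymes for their own tRNAs and ribosomes.

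The name of the gene family did not always describe an RNA enzyme. Of the 79 members, 13 are METTL proteins listed here as methyltransferases of proteins or small molecules, and 2 (METTL25 and NSUN7) were given no role. Among the rest, TRMT112 is the activating partner of several methyltransferases, TRMT6 is the non-catalytic partner of TRMT61A, and METTL17 is an assembly factor of the mitochondrial ribosome. In the reference, METTL21C, METTL24 and TRMT9B also fit the name rule, but had no row in the table. Epithelial keratins were abundant, with mean normalized counts of 27600 for KRT8, 17118 for KRT7 and 14908 for KRT18. AKR1B10, an aldo-keto reductase abundant in A549, stood at 24595. The adhesion molecule EPCAM was lower at 58.4, while CDH5 and CD68, markers of endothelial cells and macrophages, stood at 7.19 and 2.62. PTPRC, CD3E and PECAM1 had no row.

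Nearly all members were measured well above the lower end of the table. A mean normalized count of at least 100 was reached by 66 of the 79 members (83.5%), compared with 70.0% of the 14100 protein-coding genes and 46.1% of all genes. Few stood at the top, however: 6 members (7.59%) reached 1000, compared with 20.3% of protein-coding genes. Per kilobase, the members had a median of 71.1 (quartiles 40.1 and 125), and protein-coding genes a median of 58.6 (quartiles 13.0 and 140). Members thus covered the middle of the range, and 43 of 79 lay above the protein-coding median. These shares are descriptions of pooled means, with no test.

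**Figure D1:**
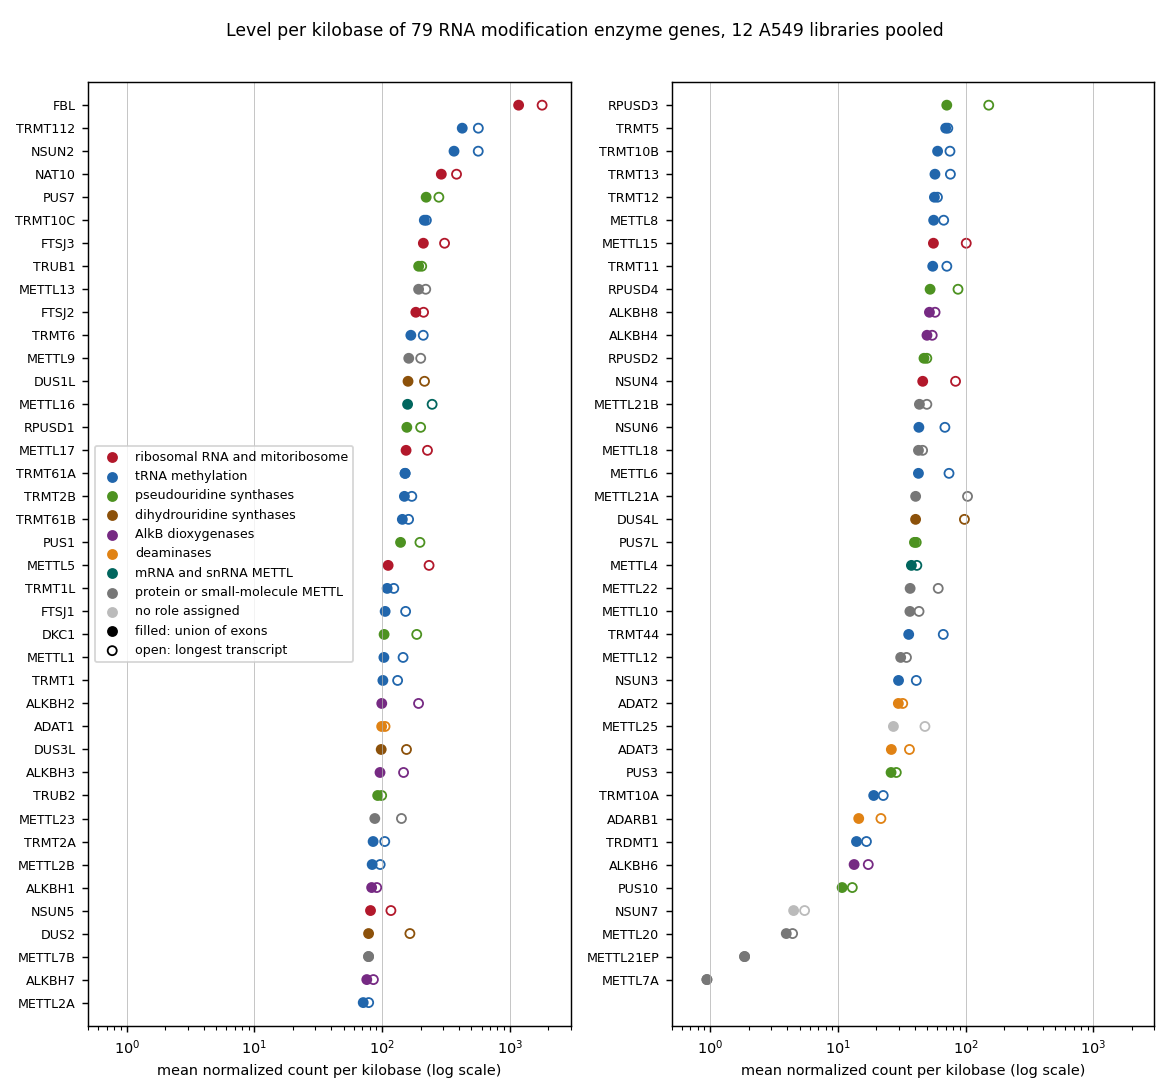
Mean normalized count per kilobase (x axis, log scale) of each of the 79 genes (y axis), pooled over 12 libraries, with colour for the role. Filled points divide by the union of exons and open points by the longest transcript; FBL stands apart at 1171 and METTL7A lies lowest at 0.94.

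FBL had the highest level of all members. Per kilobase of exon union, the genes for ribosomal RNA and the mitochondrial ribosome had the highest median of the roles. By undivided count, the role of METTL16 and METTL4 had a higher median, 815 against 530. Medians of the roles were not taken with the other lengths. FBL, which encodes fibrillarin, the methyltransferase guided by box C/D small nucleolar RNAs (ENSG00000105202.3, chromosome 19, 40325098 to 40337019, minus strand, GRCh37), had a mean normalized count of 2505. This was 1171 per kilobase, above 98.7% of protein-coding genes. NAT10, the acetyltransferase of cytidines in ribosomal RNA and tRNA (chromosome 11, 34127164 to 34169217, plus strand), followed in this group with 1520, or 291 per kilobase. FTSJ3, a methyltransferase of ribosome precursors, had 1095 (210 per kilobase). FTSJ2, the mitochondrial ribosomal RNA methyltransferase also named MRM2, had 530 (184 per kilobase). METTL17 had 654 (154 per kilobase), and METTL5, which methylates adenosine in the small ribosomal subunit, 319 (111 per kilobase). Lower in the group came NSUN5, a cytosine methyltransferase of the large subunit (274, or 81.1 per kilobase), METTL15, of the mitochondrial small subunit (434, or 55.9 per kilobase), and NSUN4, of the mitochondrial ribosome (362, or 46.0 per kilobase). All 9 genes of the group exceeded a mean normalized count of 100, and their median was 154 per kilobase.

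tRNA methylation was the largest group, with 26 of 26 listed genes measured and 25 of them at 100 or more. The median was 77.4 per kilobase, and 16 of 26 lay above the protein-coding median. TRMT112 led it at 424 per kilobase with a mean normalized count of 466 and an exon union of 1100 bases. NSUN2, the main cytosine methyltransferase of tRNA (chromosome 5, 6599352 to 6633404, minus strand), had a count of 2013, or 366 per kilobase. TRMT10C, a subunit of the mitochondrial RNase P, had 403 (214 per kilobase). At the other end stood TRDMT1, with 13.96 per kilobase over an exon union of 15453 bases and a count of 216. Also named DNMT2, it methylates a cytosine of the anticodon loop of aspartate tRNA. Its place depended on the length: with the median transcript length TRDMT1 had 300 per kilobase and TRMT10C 285. TRMT10A, a guanosine methyltransferase, was the only one under a count of 100, at 83.5 (19.03 per kilobase). Its mitochondrial paralog TRMT10C was 11.2 times higher per kilobase, and 2.88 times higher when the median transcript length was used instead. TRMT10B lay between them at 60.2 per kilobase.

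Pseudouridine synthases convert uridine to its isomer, either alone or, for DKC1, guided by box H/ACA small nucleolar RNAs. Of 12 genes, 10 had a mean normalized count of at least 100. PUS7, which acts on tRNA and messenger RNA, was highest with 221 per kilobase and a count of 981. TRUB1, the nuclear enzyme of the tRNA TΨC loop, had 193 per kilobase (count 695), and its mitochondrial relative TRUB2 had 92.3 (count 538), an order that turned with the median transcript length (ratio 0.60). DKC1, which encodes dyskerin (chromosome X, 153991017 to 154005964, plus strand), had a count of 953 and 104 per kilobase over an exon union of 9198 bases. PUS1 had a count of 799 (139 per kilobase). The lowest was PUS10 with 10.8 per kilobase (count 82.4), preceded by PUS3, which modifies the anticodon stem, with 26.03 (count 52.3). With the median transcript length this order turned, at 54.1 for PUS10 and 36.9 for PUS3. PUS7L, the relative of PUS7, had a count of 556 but 39.7 per kilobase over an exon union of 14014 bases.

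The dihydrouridine synthases reduce uridines of tRNA, mostly in the D loop. Of 5 listed names 4 had a row, the other, DUS2L, being an older name of DUS2. DUS1L had a count of 957 (160 per kilobase), DUS3L 357 (98.4 per kilobase), DUS2 327 (78.3 per kilobase) and DUS4L 223 (40.5 per kilobase). Those of the AlkB family, dioxygenases that remove methyl groups from nucleic acids or hydroxylate other substrates, lay close together apart from 1 gene. Per kilobase, the level was 99.4 for ALKBH2 and 96.3 for ALKBH3, which repair alkylated bases, and 82.8 for ALKBH1. It was 75.9 for ALKBH7, a mitochondrial protein, 52.0 for ALKBH8, which also methylates wobble uridines, 49.7 for ALKBH4 and 13.4 for ALKBH6. Their counts ran from 57.4 to 236. Among the deaminases, ADAT1, which edits an adenosine next to the anticodon of alanine tRNA, had 99.2 per kilobase (count 607). ADAT2 and ADAT3, the subunits of the enzyme for wobble inosine, had 29.7 and 26.2 (counts 214 and 57.98). ADARB1, an adenosine deaminase of double-stranded RNA, had 14.5 (count 149.6).

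Among the METTL genes outside these groups, METTL16, the methyltransferase of U6 small nuclear RNA, had a count of 1414 (158 per kilobase). METTL4, which acts on U2 small nuclear RNA, had 215 (37.6 per kilobase). The METTL genes for proteins and small molecules held both high and low extremes. METTL13, which methylates the elongation factor eEF1A, had 193 per kilobase (count 740), and METTL9, a histidine methyltransferase, 162 (count 1124). METTL7A was the lowest of all 79 members, with a mean normalized count of 3.84 (0.94 per kilobase), where the lowest of all genes was 1.52. Its paralog METTL7B had 103 (78.3 per kilobase), 83.2 times higher per kilobase and 37.7 times higher with the median transcript length. The size of these ratios is uncertain, since the count of METTL7A is low. In addition, 18.9% of the exon bases of METTL7A lie in exons of another protein-coding gene on the same strand. METTL21EP, with a count of 4.40, and METTL20, a methyltransferase of the electron transfer flavoprotein, with 27.0, were also low. NSUN7 (count 26.5) and METTL25 (count 98.95), given no role here, both lay under the protein-coding median per kilobase.

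**Figure D2:**
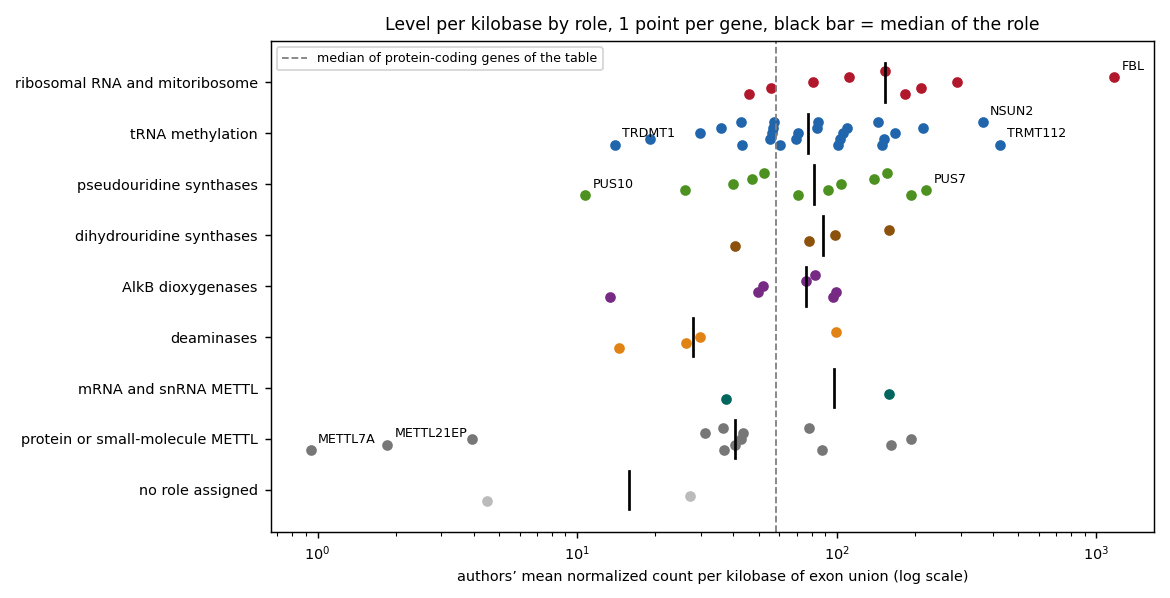
Mean normalized count per kilobase of exon union (x axis, log scale) by role (y axis), 1 point per gene, with a black bar at the median of the role and a dashed line at the protein-coding median of 58.6. The genes for ribosomal RNA have the highest median, 154, and the deaminases and the METTL genes for proteins or small molecules have medians of 27.9 and 40.5, left of the dashed line.

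Several members work as subunits of 1 enzyme, and their levels were set beside those of their partners. These pairs were chosen after the members' levels had been seen. TRMT6 and TRMT61A, which together methylate adenosine in the TΨC loop, were close, at 168 and 151 per kilobase (ratio 1.11). ADAT2 and ADAT3 had a ratio of 1.13, which turned to 0.89 with the longest transcript. METTL1, the guanosine methyltransferase of tRNA, had 103 per kilobase and its partner WDR4 239 (ratio 0.43, or 0.67 with the median transcript length). TRMT112 was 3.80 times higher than METTL5, 7.69 times higher than TRMT11 and 8.15 times higher than ALKBH8, all of which it activates. With the median transcript length these ratios were 1.53, 1.61 and 6.18. Other methyltransferases that TRMT112 activates were not compared with it, so the ratios do not describe its partners as a set. FBL was 2.76 times higher than NOP56 and 3.46 times higher than NOP58, the scaffold proteins of the box C/D particle, and 1.51 and 2.00 times higher with the median transcript length. DKC1, in contrast, was lower per kilobase than NOP10 (ratio 0.22) and NHP2 (ratio 0.18) of the box H/ACA particle. By undivided count DKC1 was higher, at 953 against 741 for NOP10 and 864 for NHP2. Its ratio to GAR1 was 0.77 and turned to 1.56 with the median transcript length. NAT10 was 2.19 times higher than THUMPD1, its adaptor for tRNA, and 5.77 times higher with the median transcript length. For the other subunits, each ratio stayed on its side of 1 with the longest and the median transcript.

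**Figure D3:**
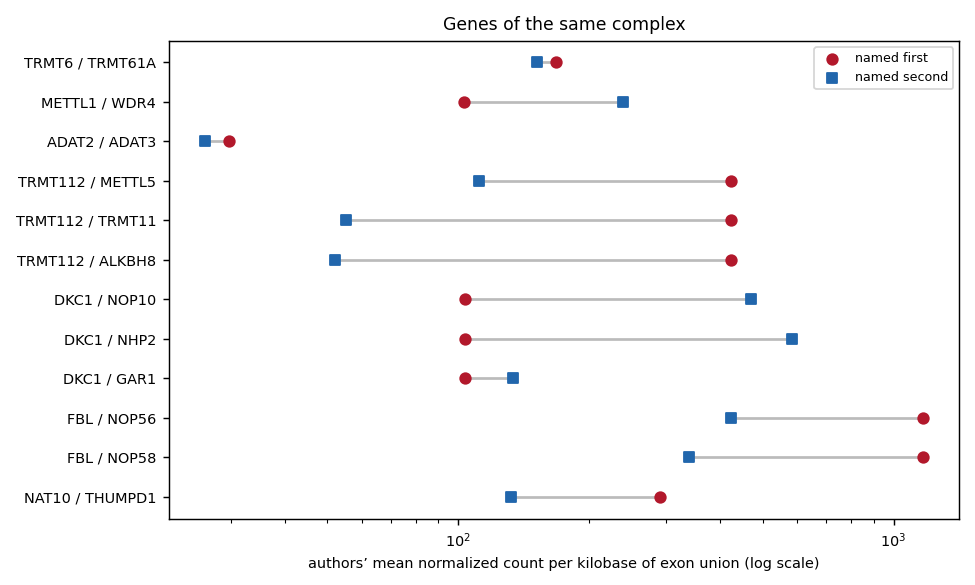
Mean normalized count per kilobase of exon union (x axis, log scale) of genes whose products share a complex (y axis), pooled over 12 libraries, the gene named first as a circle and the second as a square. FBL lies above NOP56 and NOP58, DKC1 below NOP10 and NHP2, and TRMT6 and TRMT61A nearly coincide.

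Of 39 listed partners and further RNA modification genes outside the name rule, 37 were measured and 35 had a mean normalized count of at least 100. NHP2 (585 per kilobase), NOP10 (470) and NOP56 (424) were the highest. LCMT2 and TYW5, both of wybutosine synthesis, and MTO1, of mitochondrial wobble uridine modification, were the lowest, at 20.4, 30.98 and 23.1 per kilobase. MRM1 (count 61.2) had no length and is left out of these levels per kilobase. The median of the rest of the measured list was 109 per kilobase, beside 71.1 for the 79 members.

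A level rests on reads that can be given to 1 gene, and close copies limit this. METTL2A (chromosome 17, 60501236 to 60530746, plus strand) and METTL2B (chromosome 7, 128116783 to 128146656, plus strand) encode methyltransferases for cytidine in the anticodon loop of tRNA. Their 9 coding exons in the reference had equal lengths and differed at 15 of 1134 bases (98.7% identical), with no difference in 3 exons. The sequences below are from GRCh37, both on the plus strand and read 5′ to 3′, and capitals mark the bases that differ. Exon 2 (chr17:60501580-60501671 and chr7:128117136-128117227) is shown as a stretch that is the same in both genes, and exon 7 (chr17:60522198-60522304 and chr7:128138090-128138196) as the one with the lowest identity.
METTL2A exon 2: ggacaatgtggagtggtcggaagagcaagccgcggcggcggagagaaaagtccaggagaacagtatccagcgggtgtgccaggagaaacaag
METTL2B exon 2: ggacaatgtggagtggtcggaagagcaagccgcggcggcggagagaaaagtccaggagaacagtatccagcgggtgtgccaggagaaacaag
METTL2A exon 7: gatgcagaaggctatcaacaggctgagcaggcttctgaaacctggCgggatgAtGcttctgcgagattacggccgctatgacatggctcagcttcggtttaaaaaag
METTL2B exon 7: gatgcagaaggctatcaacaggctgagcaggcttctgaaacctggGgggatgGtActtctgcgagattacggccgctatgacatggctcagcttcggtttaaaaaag

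METTL2A had a mean normalized count of 455 (71.1 per kilobase) and METTL2B of 564 (83.6 per kilobase). Exon 2 itself holds no base that separates them, but reads were longer than this exon and could reach its neighbours. Over the longest transcript of each, untranslated parts included, 10.4% of METTL2A and 10.3% of METTL2B windows of 100 bases were present in the other gene without a mismatch. Reads were also longer than these windows, so the shares are not those of whole reads. How the reads shared by both were divided was not tested, so the individual values of METTL2A and METTL2B are uncertain. Counting only genes that do not overlap the member's position, NSUN5 had the largest share of windows present in other annotated transcripts, 21.5%. These included transcripts of the pseudogene NSUN5P2 and of POM121, another gene of chromosome 7. METTL15 (7.97%) and TRMT112 (5.80%), and at under 1% METTL8 (0.54%) and METTL1 (0.31%), shared windows with processed pseudogenes. The other 72 members had none in genes outside their own position. Windows shared with an overlapping gene were counted apart. They made up, for example, 100% of those of FTSJ2, 54.7% of DUS4L and 22.6% of ALKBH6, the last with a long non-coding RNA.

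Position limits the values in another way. In the reference, 19 members had more than 10% of their exon bases inside exons of another protein-coding gene, for 11 of these on the opposite strand alone, while 46 members had none. The library kit keeps strand. Whether counting used it is not given in the sources used here, so reads from these stretches may have been assigned to either gene or to neither. FTSJ2 (90.9% of exon bases, same strand) lies within a longer gene model of the reference that had no row in the table. ADAT3 (34.8%, same strand) lies within SCAMP4, and DUS4L (27.2% on the same strand) shares exons with the read-through gene DUS4L-BCAP29. On the opposite strand the largest shares were 25.8% for TRMT112, which overlaps ESRRA, and 25.6% for ALKBH4, which overlaps ORAI2. METTL1 and METTL21B are both members and overlap each other head to head by 628 bases on chromosome 12. Their part in the levels was not tested.

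**Figure D4:**
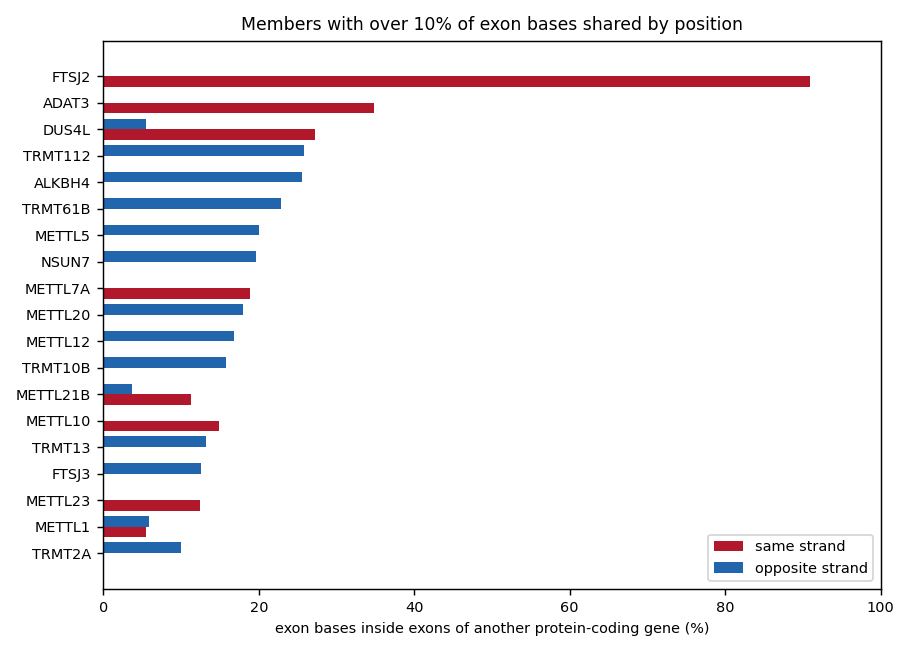
Percentage of exon bases that lie in exons of another protein-coding gene (x axis) for the 19 members above 10% (y axis), in red for the same strand and in blue for the opposite strand. FTSJ2 stands apart at 90.9%, followed by ADAT3 at 34.8%.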

How the data were processed

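Total RNA of A549 cells had been depleted of ribosomal RNA and made into stranded libraries. Reads were mapped to hg19 (STAR) by the authors, who summed them over genes of an earlier GENCODE annotation (HTSeq) and fitted DESeq2 with a batch term. The signal analysed is the mean normalized count that the authors deposited, 1 value per gene over 12 libraries (lowest 1.52). The 5 further value columns hold the authors' fold changes, errors, statistics and p-values. They were not read, so no group test was run and library depth is unknown.

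Gene IDs were matched without version numbers to GENCODE release 44 on GRCh37 (21798 of 22564, 96.6%; all 79 members). Exon unions, the longest transcript and the median transcript gave lengths. Windows of 100 bases of each member's longest transcript were searched on both strands in all annotated transcripts. Matches in genes that overlap the member's position were counted apart. Named were the 10 highest and 5 lowest members per kilobase, the extremes of each role, lists under 8 genes in full, paralogs and the 3 highest and lowest partners. Paralogs were compared by coding bases in place of protein sequence. Other members were named after their values were seen. Members and lists were chosen with earlier results of these data known. Length and rule code was tested on simulated data. Python 3.11.15, pandas 2.3.3, numpy 2.4.6 and matplotlib 3.10.9 were used.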

Additional observations from a re-analysis of the deposited data

How the results depend on the processing

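No paired analysis was possible because no values per library were used, and for the same reason no library could be left out and no other normalization or test applied. Members at or above 100 numbered 66, and 75 and 55 with thresholds of 50 and 200. Those at 1000 or more numbered 6, and 22 and 2 with thresholds of 500 and 2000. Symbols had 1 row each among the members, so summing rows gave the same numbers. The number of members above the protein-coding median per kilobase, 43, was 43 with the longest transcript, 45 with the median transcript, 39 against protein-coding genes at 10 or more and 64 against all genes with a length. The order at the top depended on the length: of the 10 highest members, 7 were shared with the longest transcript, 4 with the median transcript and 5 with no division by length. FBL was highest by each of these. The annotation is newer than the one used for counting, so lengths can differ from those behind the counts.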

Other observations

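Members that act on mitochondrial RNA or on the mitochondrial ribosome were also listed. The list of 12 (METTL8, METTL15, METTL17, NSUN3, NSUN4, FTSJ2, TRMT2B, TRMT10C, TRMT61B, TRUB2, RPUSD3 and RPUSD4) was drawn up after the levels had been seen and has no test. All 12 had a mean normalized count of at least 100, from 215 to 658. Per kilobase the list ran from 29.8 for NSUN3, which methylates the wobble cytidine of mitochondrial methionine tRNA, to 214 for TRMT10C. The median of the list was 81.7, beside 71.1 for the other 67 members, which can hold further such enzymes.

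The 79 genes lay on 23 chromosomes, with 9 on chromosome 12 and 8 on chromosome 11. DKC1 holds the H/ACA small nucleolar RNAs SNORA36A and SNORA56 on its own strand, members of the class that dyskerin binds. METTL12 holds SNORA57 in the same way. None of these 3 small RNAs had a row in the table under the reference's gene ID.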
